A study of Mus musculus with 12 samples.

Results

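The ABC transporters are a family of membrane proteins, named for the ATP-binding cassette that powers them, and 42 of its genes were followed across 4 sorted populations of mouse intestinal epithelial cells. A row of the expression table belonged to the family when its symbol was Abc, a subfamily letter from a to g, a number and at most 1 further letter, and a row was a member when its value reached 10 in at least 3 of the 12 libraries. Of 30265 gene symbols in the table, 50 had such a name and 42 were members. The other 8 rows (Abca6, Abca8a, Abca9, Abca15, Abca16, Abca17, Abcb1b and Abcg4) stayed under that minimum. The same minimum kept 16577 genes of the whole table. A gene that is high in a single population can pass it through that population alone, which was the case for 1 member, Abcb11. The symbols are systematic names, so the family also holds proteins that transport nothing (Abce1 and the F subfamily), while the ABC proteins Cftr, Tap1 and Tap2 carry other names and are given as comparisons.

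The cells came from C57Bl/6 mice with a Sox9-GFP reporter and had been separated by flow cytometry on the reporter's brightness. The gates, called High, Low, Sublow and Negative here, are those for Sox9, a crypt transcription factor. All 4 groups carry the reporter and, so far as the labels say, differ by the gate alone. Each group had 3 libraries (A, B and C) of ribosomal RNA-depleted total RNA from 12000 cells, sequenced single-end. No label gives an age, a treatment or the promoter elements of the reporter, or says whether A, B and C came from different mice, so p-values measure the spread between these samples, which may be technical.

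An ABC transporter binds and hydrolyses ATP at paired cytoplasmic nucleotide-binding domains and uses the energy to move a substrate through its membrane-spanning domains, most often outward or into an organelle. Full transporters carry all of these domains in 1 chain, whereas the D and G subfamilies are built from chains that must pair. In the intestine the family is known for returning plant sterols to the lumen, for limiting the uptake of drugs and dietary toxins at the apical membrane, for exporting conjugated metabolites, and for feeding cholesterol into HDL at the basolateral side.

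Depth per library ranged from 11.6 M to 17.0 M gene-assigned reads (M, 1e6). Values are the deposited normalised counts, which correct for library size but not for gene length. Differences are on the log2(value + 1) scale, given with the standard error of a limma fit to all 12 libraries, and a gene was called at a Benjamini-Hochberg adjusted p below 0.05 over all 16577 genes. Sox9 itself averaged 20262 ± 1220.2 (SD, n = 3) in High and 6601 ± 921 in Low, falling to 2084 ± 897 in Sublow and 604 ± 191 in Negative. Epcam, which defines epithelium, had means between 14191 and 25733. The sum of 4 enteroendocrine markers ran from 313911 to 521107 in High and from 369 to 1201 in Negative, and that of 4 tuft markers from 83259 to 87618 in High and from 67.7 to 167 in Negative. Stem cell markers summed highest in Low (56790.1 to 75126), as did cycling markers (29709 to 32515). Goblet markers summed highest in Sublow (330379.8 to 564245), overlapping Low (134997 to 471819), and Paneth markers in Negative (37331 to 100341), beside 14426 to 34502 in Low. No goblet marker was called between Sublow and Low, and no Paneth marker between Negative and Low. The sum of 5 enterocyte markers was 10691 to 28649 in Low, 25009 to 34330.1 in High and 339844 to 509836 in Negative, while the Sublow libraries were far apart at 148161 (A), 278616 (B) and 52302 (C). Of cells outside the epithelium, leukocyte markers summed to 1980.2 to 3384 in High and to at most 271 elsewhere, nearly all of it Ptprc, with Cd79a at a mean of 2.31 in High. Stromal markers summed to 3020.5 to 4721 in High, mostly Vim, with Dcn at 0 in all High libraries. Endothelial markers lay between 897 and 1527 in all 12 libraries with Cdh5 means of at most 3.47, red cell markers at 63.9 or less, and pancreatic and hepatic markers at 575 or less (highest in High, mostly Ttr and Alb).

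The scaling matters for the family. The authors' size factors leave the median gene near no difference (Negative against Low, -0.05), but the libraries' normalised totals then run from 12.3 M to 20.6 M and are highest in Negative. Scaled instead to the same total, the median of all genes in Negative against Low moved to -0.61, in Sublow against Low to -0.33, in High against Negative from 0.03 to 0.51, in Sublow against Negative from -0.04 to 0.23 and in High against Sublow from 0.03 to 0.23. In bulk libraries, fewer cells of a type and less RNA per cell cannot be told apart.

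A difference somewhere among the 4 populations was called for 35 of the 42 members (83.3%), where the same limma F-test called 69.5% of all genes. The 7 others (Abca2, Abca4, Abca13, Abcb4, Abcb5, Abcc9 and Abcd2) did not pass it, and all but Abca2 averaged under 100. Of the 35, the mean was highest in Negative for 17 and in High for 16, and in Low or Sublow for 1 each (Abce1 and Abcf2). The matching shares of all genes were not counted. Negative and Low were the most often different of the pairs that include Low: 31 members were called (background 57.2%), 22 of them higher in Negative (background 26.8%) and 9 lower (background 30.3%). Scaled to the same total, this became 25 members, 14 higher and 11 lower. The backgrounds in this paragraph are those of the reported scaling. At the same total the calls of all genes moved as well, as given at the end, so these shares do not apply to the 25 members. High against Low called 20 members (background 42.9%), 17 higher in High (background 23.6%) and 3 lower (background 19.3%). Sublow against Low called 14 (background 24.0%), 7 higher in Sublow (background 13.3%) and 7 lower (background 10.7%). The median absolute log2 difference of the 42 members was 1.13 in Negative against Low, 0.95 in High against Low and 0.52 in Sublow against Low, beside 0.79, 0.59 and 0.41 over all genes tested. These comparisons share the Low libraries and are not independent of each other.

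The remaining pairs gave 30 members for High against Sublow (background 52.0%), 16 higher in High (background 26.7%) and 14 lower (background 25.3%), and 25 for High against Negative (background 54.6%), 12 higher in High (background 28.8%) and 13 lower (background 25.8%). At the same total these were 28 members (19 higher, 9 lower) and 29 members (19 higher, 10 lower). Same-total counts in this paragraph cannot be set against the printed backgrounds, which belong to the reported scaling. Sublow against Negative called 17 (background 27.7%), 4 higher in Sublow (background 15.1%) and 13 lower (background 12.7%), and 11 at the same total (5 higher, 6 lower). That count rested on single libraries: it was 5 without Sublow A, 4 without Sublow C and 3 without Negative B, and 0 when only the 6 libraries of the pair were fitted. Calls between Sublow and Negative are therefore printed below as values of the 12-library fit only.

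**Figure D1:**
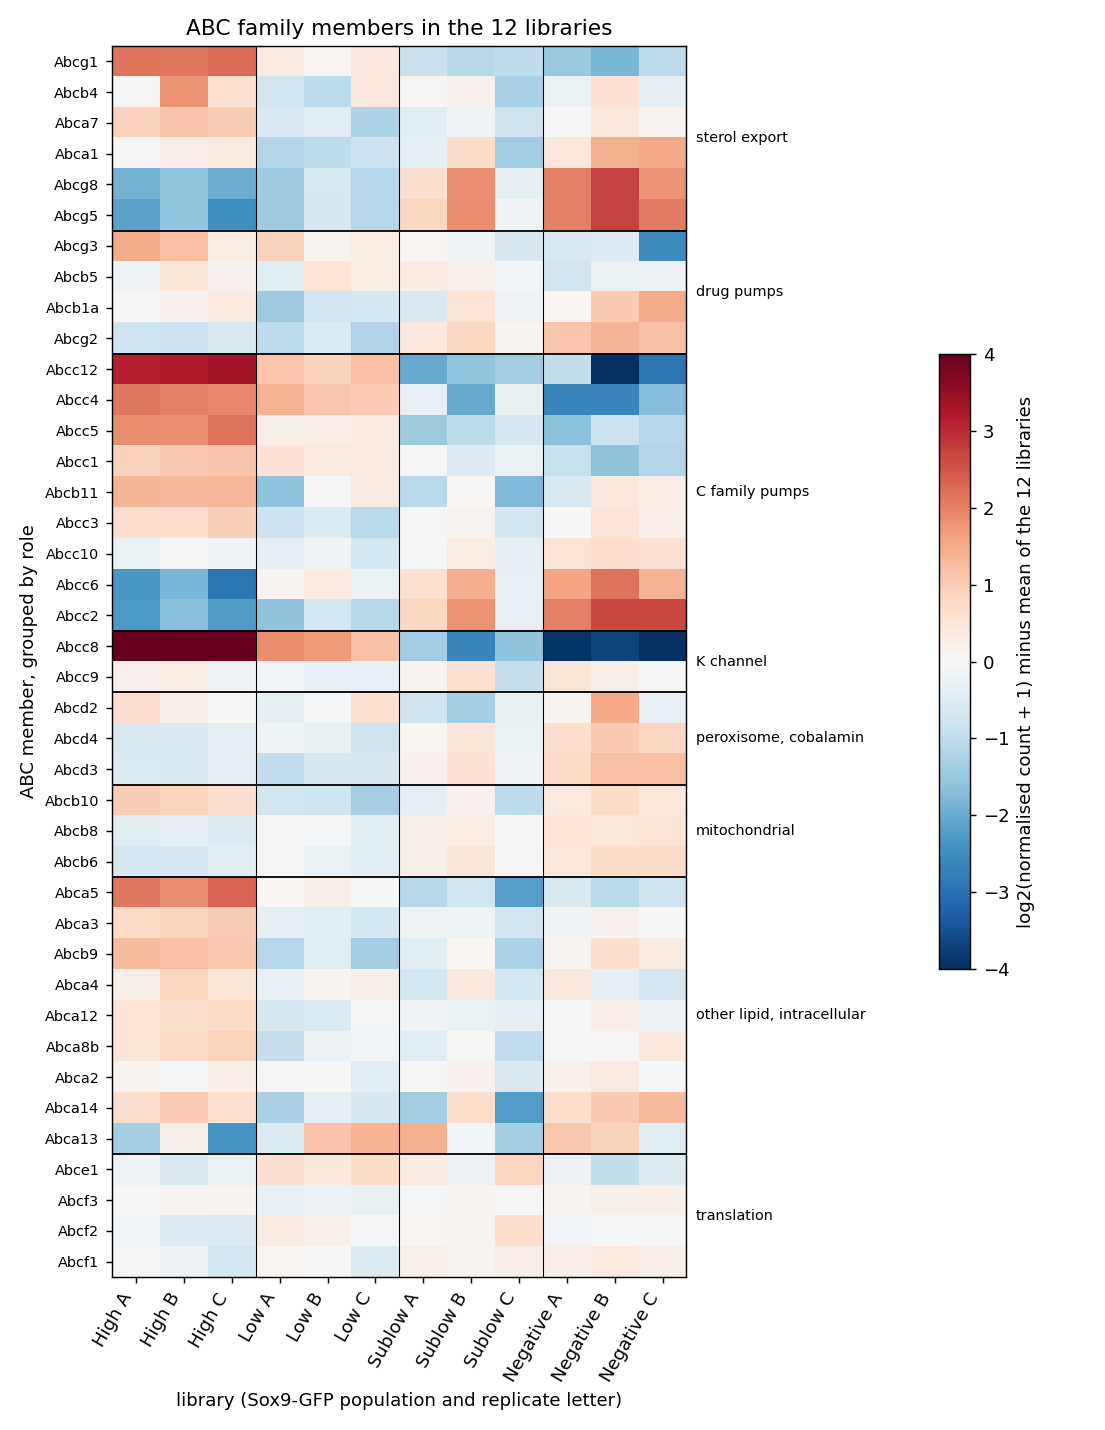
Colours give the log2(normalised count + 1) of the members described in the text (rows, grouped by role) in each library (columns) minus its mean over the 12 libraries, with the scale stopping at 4 in either direction. Abcc8, Abcc12, Abcc4 and Abcg1 fade from High to Negative, whereas Abcg5, Abcg8 and Abcc2 are deepest in Negative and uneven among the Sublow libraries.

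Sterol and phospholipid exporters split between the ends of the Sox9 range. Abcg5 and Abcg8 encode the obligate partners of the apical pump that sends plant sterols and cholesterol back to the lumen. They are neighbours in opposite directions on chromosome 17, and RefSeq places their starts 110 bases apart. The stretch between both starts (GRCm38.p6, chr17:84683012-84683120, + strand, read from Abcg5 towards Abcg8) is shown because the pair share it. Capitals mark 2 copies of the GATA motif (AGATAA on the minus strand, first bases 17 and 47 of the stretch) and 1 TATA box (TATAAA on the minus strand, first base 79).
Abcg5 to Abcg8: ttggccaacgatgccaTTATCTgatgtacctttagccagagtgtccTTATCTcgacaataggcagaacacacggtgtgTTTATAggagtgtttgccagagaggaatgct
Searched on both strands in the 250 bases before a start, the GATA letters occur in 10.3% of 27025 RefSeq promoters and the TATA letters in 13.0%, so neither is rare.

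Abcg5 was at 226, 332 and 181 (libraries A, B and C) in High, 374, 630.3 and 454 in Low, 1761, 3612 and 909 in Sublow and 3998, 6442 and 4205 in Negative. Abcg8 was at 314, 405 and 296 in the High libraries, 441, 768 and 533 in the Low, 1818, 4160.1 and 897 in the Sublow and 4709.8, 7609 and 4078 in the Negative. For both genes every Negative library lay above every Low and High library, and the 3 Sublow libraries spread over most of the space between. Abcg5 rose by 3.33 ± 0.41 from Low to Negative (adjusted p = 3.67e-05) and Abcg8 by 3.22 ± 0.44 (adjusted p = 6.88e-05). High against Low was -0.99 ± 0.41 for Abcg5 (adjusted p = 0.0722) and -0.75 ± 0.44 for Abcg8 (adjusted p = 0.188), neither of them called although the libraries did not overlap. With the replicate letter added to the fit, both genes were called in this comparison. Both were called higher in Sublow than in Low, by 1.92 ± 0.41 and 1.74 ± 0.44, but the Abcg8 call was lost without Low A (adjusted p = 0.0573). Per kb of exon the ratio of Abcg5 to Abcg8 stayed between 0.845 and 1.43 over the 12 libraries, with a mean of 0.992 ± 0.144 in High libraries, 1.16 ± 0.0231 in Low, 1.31 ± 0.103 in Sublow and 1.26 ± 0.146 in Negative. Exons of the pair share 82 bases in GENCODE M21 (3.02% of Abcg5 and 2.19% of Abcg8), and whether counting used strand is not given. The enterocyte marker sum given above was likewise highest in Negative and ordered the Sublow libraries in the same way (B above A above C), although it was not lower in High than in Low, and its part in these differences was not tested.

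Abca1 loads cellular cholesterol onto apolipoprotein A-I at the basolateral membrane. It was at 1044, 1239 and 1367 in High, 454, 506 and 587 in Low and 796, 1724 and 396 in Sublow, against 1429, 2767 and 2949 in Negative. Its lowest libraries were those of Low and Sublow C, and it rose by 2.14 ± 0.42 from Low to Negative (4.41-fold, adjusted p = 0.000903). The rise from Low to High of 1.24 ± 0.42 (adjusted p = 0.0319) was lost on leaving out any of the 3 High or 3 Low libraries (adjusted p up to 0.0926). Abca7, a relative of Abca1 that also exports phospholipid, was highest in High at 1970.3, 2295 and 2088, against 691, 789.6 and 450.1 in Low, 791, 954 and 603 in Sublow and 1032, 1424 and 1168 in Negative. It was called higher in High than in Low (1.75 ± 0.22), Sublow (1.46 ± 0.22) and Negative (0.82 ± 0.22), and in Negative than in Low (0.93 ± 0.22, a call lost at the same total). Abcg1, which moves sterol within and out of cells, ran the opposite way to Abcg5. Its values were 354, 346 and 384 in High and 105, 83.1 and 105 in Low, then 41.9, 35.8 and 38.7 in Sublow and 27.5, 21.5 and 37.7 in Negative. No High library overlapped any other, and summed reads were 12.3 times higher in High than in Negative (95% counting interval 9.68 to 15.7, which covers counting error only). The fitted difference was 3.63 ± 0.23 (adjusted p = 6.67e-08), with High above Low by 1.88 ± 0.23 (adjusted p = 5.01e-05) and Negative against Low at -1.75 ± 0.23 (adjusted p = 4.74e-05). The enteroendocrine and tuft marker sums fell across the gates too, and their part in this difference was not tested. Abcb4, the phosphatidylcholine floppase of the bile canaliculus, never passed 29.5 in any library and was not called in any comparison.

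The other genes of sterol and bile acid handling, a list of 14, sided mostly with Abcg5 and Abcg8. From Low to Negative 11 of the 14 rose (background 26.8%) and 1 fell (background 30.3%), with a median of 2.45 against -0.05 over all genes. Npc1l1, the apical importer that takes up the sterols Abcg5 and Abcg8 expel, rose from 1135 ± 554 in Low to 18548 ± 4168 in Negative (4.11 ± 0.45, adjusted p = 1.65e-05). Soat2, which esterifies cholesterol, rose by 3.39 ± 0.39 and Apoa1, the acceptor of Abca1, by 5.31 ± 0.70. The sterol sensors Nr1h3 (2.29 ± 0.26) and Nr1h2 (1.21 ± 0.22), whose proteins activate the Abca1, Abcg1, Abcg5 and Abcg8 genes, rose as well. Of these target genes, Abcg1 was called lower in Negative than in Low, as given above, and the part of the sensors was not tested. Scarb1, the HDL receptor, and Mylip, which degrades the LDL receptor, resembled Abcg1 in High, where both were called higher than in Low, by 2.37 ± 0.25 and 1.85 ± 0.22. Negative against Low was -0.55 ± 0.25 for Scarb1 (adjusted p = 0.0787, not called) and -0.61 ± 0.22 for Mylip (adjusted p = 0.0357). Scarb1 was at 1721 ± 61.1 in High and 229 ± 33.4 in Negative.

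Among the drug pumps, Abcg2, the apical breast cancer resistance protein, showed the clearest step. It was at 696, 685 and 808 in the High libraries, 585, 828 and 528 in the Low, 1650.0, 2186 and 1326 in the Sublow and 2656, 3148 and 2756 in the Negative. High and Low overlapped, every Sublow library lay above them, and every Negative library lay above Sublow. Abcg2 rose by 1.41 ± 0.20 from Low to Sublow (2.65-fold, adjusted p = 0.000687) and by 2.16 ± 0.20 from Low to Negative (4.48-fold, adjusted p = 7.35e-06), and High against Low was 0.20 ± 0.20 (adjusted p = 0.455). Abcb1a, a P-glycoprotein that expels a wide range of hydrophobic drugs, was at 2767, 3184 and 3689.8 in High, 1027, 1665 and 1732 in Low and 1853, 4072 and 2417 in Sublow, against 2985, 5867 and 7923 in Negative. All Low libraries lay under all others, and Negative spread widest. It rose by 1.85 ± 0.36 from Low to Negative (3.60-fold, adjusted p = 0.000771). High was above Low by 1.15 ± 0.36 (adjusted p = 0.0201), a call lost without High B, High C or Low A (adjusted p up to 0.0873), and High and Negative were not called different (-0.70 ± 0.36, adjusted p = 0.117).

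Abcb1b, a close relative and the neighbour of Abcb1a, stayed under the minimum, with 46 reads over the 12 libraries beside 37755 for Abcb1a. Its values were 0.902, 0.921 and 5.07 in High and 1.09, 2.57 and 6.34 in Low. They were 1.02, 2.24 and 0.879 in Sublow and 5.28, 10.8 and 11.4 in Negative. How the counting treated reads that fit both genes is not given, so the split between them is uncertain. Abcg3, a rodent relative of Abcg2, was low throughout (1.14 to 34.3) and was called lower in Negative than in Low (-1.67 ± 0.56, adjusted p = 0.0232), a call lost without Low A or Negative C (adjusted p up to 0.0897). Abcb5 lay between 5.28 and 14.6 and was not called anywhere. Of 9 genes that regulate the response to foreign compounds, 8 rose from Low to Negative (background 26.8%) and none fell. They included Nr1i2, the pregnane X receptor that acts on the P-glycoprotein genes (583 ± 79.5 in Low, 2079 ± 294 in Negative), Nr1i3 (49.7 ± 27.5 and 1381 ± 311) and Nfe2l2 (1657 ± 408 and 5948 ± 863). High against Low was -0.02 ± 0.21 for Nr1i2 (adjusted p = 0.94), while Nfe2l2 (-0.70 ± 0.21) and Rxra (-0.89 ± 0.21) were called lower in High.

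The C family conjugate pumps moved in opposite directions. Abcc2, Abcc6 and Abcc10 were highest in Negative, and Abcc1, Abcc4, Abcc5 and Abcc12 fell with falling Sox9. Abcc2, the apical exporter of glutathione and glucuronide conjugates, was at 529, 801 and 538 in the High libraries, 857, 1589 and 1198 in the Low, 4564, 9019 and 2047 in the Sublow and 10585, 16675 and 16425 in the Negative. The 4 populations did not overlap, in the order High, Low, Sublow, Negative. The rise from Low to Negative was 3.60 ± 0.43 (12.1-fold, adjusted p = 2.83e-05) and that from Low to Sublow 1.90 ± 0.43 (adjusted p = 0.00773), while High against Low was -0.95 ± 0.43 (adjusted p = 0.0955). With the replicate letter added to the fit, Abcc2 was called in High against Low. Abcc6, the basolateral protein whose loss causes soft-tissue calcification, was the sole member called lower in High than in each other population. It stood at 47.8, 68.2 and 31.3 in High, 265, 318 and 206 in Low and 373, 672 and 198 in Sublow, against 740.3, 1103 and 653 in Negative. No High library reached even the lowest value elsewhere, with High against Low at -2.44 ± 0.40 (5.44-fold, adjusted p = 0.000438) and Negative above Low by 1.64 ± 0.40 (adjusted p = 0.00384). Abcc10, which expels lipophilic drugs, had a smaller step, from 482 ± 89.3 in Low to 943 ± 50.9 in Negative (0.98 ± 0.18, adjusted p = 0.000513).

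Abcc4, which exports cyclic nucleotides and prostanoids, declined across the gates. Its values were 643, 598 and 562 in High and 388, 316 and 298 in Low, then 117, 35.8 and 119 in Sublow and 23.2, 23.1 and 43.4 in Negative. High lay wholly above Low and Low above Sublow, and Sublow B alone fell within the Negative range. It fell by 3.49 ± 0.40 from Low to Negative (11.3-fold, adjusted p = 2.14e-05) and by 2.05 ± 0.40 from Low to Sublow (adjusted p = 0.00344), and High against Low was 0.85 ± 0.40 (adjusted p = 0.104). Abcc1, a basolateral exporter of glutathione conjugates and leukotriene C, ran from 1181, 1313 and 1369 in High through 922, 821 and 795 in Low and 601, 432 and 520.2 in Sublow to 334, 205 and 277 in Negative. No populations overlapped, and from Low to Negative it fell by 1.66 ± 0.18 (3.16-fold, adjusted p = 1.66e-05). High was above Low by 0.61 ± 0.18 (adjusted p = 0.0171), a call lost at the same total and without High B, High C, Low B or Low C (adjusted p up to 0.0596). Its fall from Low to Sublow (-0.72 ± 0.18, adjusted p = 0.0135) was lost without Low A or Sublow B (adjusted p up to 0.0573).

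Abcc5, a pump for cyclic nucleotides and other organic anions, was at 2057, 1993 and 2558 in the High libraries, 658, 677 and 727 in the Low, 211, 279.5 and 356 in the Sublow and 179.5, 312 and 257 in the Negative. High stood apart from Low and Low from the rest, whereas Sublow and Negative overlapped (0.18 ± 0.22, adjusted p = 0.562, with a sign that changed on leaving out Sublow C or Negative A). High exceeded Low by 1.67 ± 0.22 (3.18-fold, adjusted p = 9.48e-05), and from Low to Negative Abcc5 fell by 1.49 ± 0.22 (2.82-fold, adjusted p = 0.000115). Abcc12, whose substrates are poorly known, was at 139, 149 and 161 in High, 33.8, 30.0 and 36.5 in Low and 3.06, 4.47 and 5.27 in Sublow, against 7.39, 0 and 1.14 in Negative. That is 507 reads in High against 8 in Negative, a ratio of 46.4 with a counting interval of 23.4 to 108. High was above Low by 2.13 ± 0.60 (adjusted p = 0.0125), and from Low to Sublow Abcc12 fell by 2.73 ± 0.60 (adjusted p = 0.00673).

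Abcc3, a basolateral exporter of glucuronides and bile salts, was lowest in Low. It was at 3906, 3936 and 4784 in High and 1389.9, 1694 and 1148 in Low, then 2296, 2723 and 1483 in Sublow and 2493, 3485 and 2919 in Negative. Low overlapped only with Sublow C, and High lay above all others. It was higher than in Low in both High (1.59 ± 0.22, 3.01-fold, adjusted p = 0.00014) and Negative (1.08 ± 0.22, 2.11-fold, adjusted p = 0.00123), and High against Negative was 0.51 ± 0.22 (adjusted p = 0.0681). Abcb11, the bile salt export pump of the liver, was near the detection limit with 14.7 to 15.3 in High and 0.879 to 7.69 elsewhere. Its High against Low call (1.77 ± 0.63, adjusted p = 0.0381) was lost without any of High A, High B, High C, Low A or Low B (adjusted p up to 0.155), and since it entered through High alone it had to be high there.

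**Figure D2:**
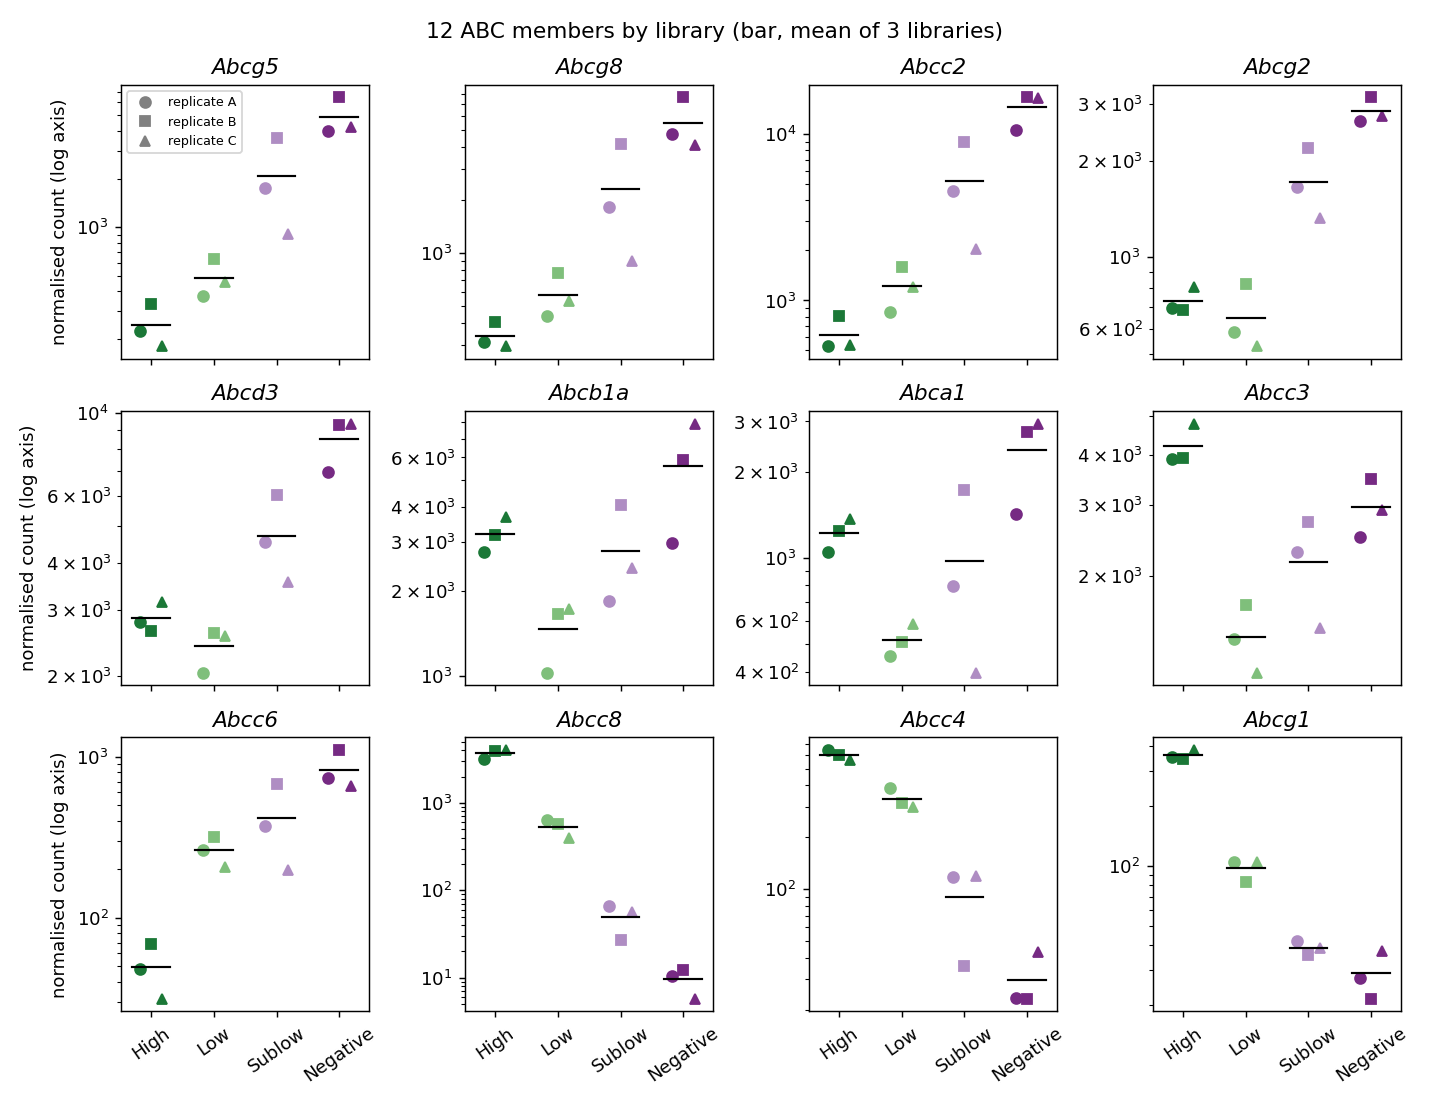
Each panel shows the normalised count (log axis, a different range in each panel) of 1 member in the 12 libraries, with the marker shape giving the replicate letter and the bar the mean of 3 libraries. Abcg5, Abcg8, Abcc2 and Abcd3 climb to Negative with Sublow B above A above C, Abcb1a, Abca1 and Abcc3 are lowest in Low, and Abcc8, Abcc4 and Abcg1 descend from High.

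Of 13 genes that make the conjugates those pumps carry, 12 rose from Low to Negative (background 26.8%) and none fell (background 30.3%), with a median of 2.62. The enterocyte marker sum rose between the same gates, from at most 28649 in Low to at least 339844 in Negative, and its part in the changes of this and the other metabolic lists was not tested. Ugt1a1, which glucuronidates bilirubin and drugs, rose from 376 ± 158 to 3057 ± 508 (3.11 ± 0.38) and Gsta1, a glutathione transferase, from 464 ± 486 to 11047 ± 2827 (5.05 ± 0.73). In High 8 of the 13 were called lower than in Low (background 19.3%) and 3 higher (background 23.6%). Those higher were Gclc (0.88 ± 0.17) and Gclm (1.43 ± 0.26), the subunits of the enzyme that starts glutathione synthesis, and the sulfotransferase Sult1d1 (0.95 ± 0.25).

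Upstream sequence was at hand for 32 of the 42 members in the RefSeq table (GRCm38.p6). The 100 bases before the starts of Abcc2, Abcc4 and Abcd3 are printed to show how unlike the promoters of the family are, and were chosen after their values were seen. Abcc2 and Abcd3 rose together from Low to Negative and Abcc4 fell. Each is read 5′ to 3′ in the direction of its gene, with every CG pair in capitals: Abcc2 from chr19:43782208-43782307 (+ strand), Abcd3 from chr3:121815303-121815402 (- strand) and Abcc4 from chr14:118706220-118706319 (- strand).
Abcc2: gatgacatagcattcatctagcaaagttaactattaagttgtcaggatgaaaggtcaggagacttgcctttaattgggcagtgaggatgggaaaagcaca
Abcd3: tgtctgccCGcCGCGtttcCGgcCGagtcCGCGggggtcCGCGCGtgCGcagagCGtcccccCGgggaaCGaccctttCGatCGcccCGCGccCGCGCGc
Abcc4: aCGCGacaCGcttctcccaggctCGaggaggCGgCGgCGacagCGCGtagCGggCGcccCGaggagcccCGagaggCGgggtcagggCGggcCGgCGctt
Abcc2 has 0 CG pairs in this stretch, Abcd3 has 21 and Abcc4 has 17, and over the 250 bases before the start the counts are 1, 34 and 35 against a median of 6 over all 27025 promoters. So the members that rose include promoters both poor and rich in CG pairs. In the 250-base windows of the 32 members, the GC box (GGGCGG, either strand) was present in 15 (46.9%, beside 32.9% of all promoters) and an E-box (CAGGTG, either strand) in 13 (40.6%, beside 17.1%). The CCAAT box was present in 9 (28.1%, beside 34.5%), and the HNF4 letters CAAAGTNCA, in which N is any base, in Abcb1a alone (3.13%, beside 1.21%).

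Abcc8 had the largest difference of the family (High against Negative 8.53 ± 0.34, adjusted p = 3.03e-09). It encodes the sulfonylurea receptor SUR1, the regulatory subunit of the ATP-sensitive potassium channel that couples metabolism to hormone release in endocrine cells, and is not a pump. It was at 3224, 3955 and 4054 in the High libraries, 631, 568 and 391 in the Low, 65.3, 26.8 and 56.2 in the Sublow and 10.6, 12.3 and 5.71 in the Negative. None of the populations overlapped, and each step down was called. High was above Low by 2.84 ± 0.34 (7.16-fold, adjusted p = 4.8e-05), Sublow against Low was -3.46 ± 0.34 (adjusted p = 6.84e-05), and Sublow was above Negative by 2.23 ± 0.34 (adjusted p = 0.00225). In reads this was 12665 in High and 23 in Negative, a ratio of 403 (counting interval 269 to 636). Kcnj11, the pore that Abcc8 surrounds, followed it with 212 ± 26.4 in High, 36.9 ± 3.49 in Low and 2.78 ± 2.65 in Sublow, against 0.513 ± 0.888 in Negative (High against Low 2.49 ± 0.61, adjusted p = 0.00582). Abcc9, the SUR2 subunit known from muscle, lay between 7.03 and 22.4 in all libraries and was not called, and its usual pore Kcnj8 had means of at most 2.66 and was not tested. The enteroendocrine and tuft marker sums fell across the gates in the same order as Abcc8, and their part in this difference was not tested.

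The peroxisomal Abcd3 and the lysosomal Abcd4 rose towards Negative. Abcd3, the peroxisomal importer of branched-chain acyl-CoA and bile acid intermediates, was at 2788, 2635 and 3147 in the High libraries, 2042, 2597 and 2562 in the Low, 4543, 6043 and 3556 in the Sublow and 6977, 9273 and 9348 in the Negative. No populations overlapped, with High just above Low (0.26 ± 0.19, adjusted p = 0.31), then Sublow (0.95 ± 0.19 above Low, adjusted p = 0.00442) and Negative (1.82 ± 0.19 above Low, 3.54-fold, adjusted p = 1.38e-05). Abcd4, which releases cobalamin from lysosomes, rose from 229 ± 48.6 in Low to 547 ± 73.4 in Negative (1.27 ± 0.21, adjusted p = 0.0003). Abcd2, a peroxisomal importer of fatty acyl-CoA, lay between 4.47 and 40.0 and was not called.

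Of 9 genes for peroxisomal oxidation and assembly, 8 rose from Low to Negative (background 26.8%) and also from Low to Sublow (background 13.3%), and none fell in either. The enterocyte marker sum rose between the same gates, and its part was not tested. Ehhadh, the bifunctional enzyme of the straight-chain pathway, went from 519 ± 146 in Low to 3059.9 ± 673 in Negative (2.57 ± 0.32, adjusted p = 3.54e-05) and stood at 419.6 ± 33.9 in High (-0.27 ± 0.32 against Low, adjusted p = 0.517). Hsd17b4, which acts on branched substrates, was called lower in High than in Low (-1.22 ± 0.21) and higher in Negative (2.01 ± 0.21). Pex3, a peroxisome assembly factor, was not called in Negative (0.26 ± 0.14, adjusted p = 0.145) or Sublow (0.03 ± 0.14, adjusted p = 0.897).

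Of the mitochondrial members, Abcb6 and Abcb8 moved by small steps. Abcb8, part of a mitochondrial potassium channel, ran from 303 ± 18.2 in High to 592 ± 17.2 in Negative, and Abcb6, a porphyrin transporter, from 193 ± 20.5 to 461 ± 51.4. Both were called higher in Negative than in Low, by 0.66 ± 0.14 for Abcb8 and 0.92 ± 0.17 for Abcb6, and both calls were lost at the same total. Abcb10, needed for haem synthesis, differed from them. It was at 1960.4, 1829 and 1549 in High and 597, 570.4 and 395 in Low, then 782, 1130.3 and 488 in Sublow and 1312, 1664 and 1326 in Negative. The lowest High and Negative libraries lay above the highest Low library. The fitted difference from Low was 1.79 ± 0.26 in High (3.45-fold, adjusted p = 0.000199) and 1.47 ± 0.26 in Negative (2.78-fold, adjusted p = 0.000436). Of 12 genes of haem and iron-sulfur cluster synthesis, 7 were called lower in High than in Low (background 19.3%) and none higher, so Abcb10 in High went against them. In Negative 6 were higher (background 26.8%), among them Alas1, the rate-limiting enzyme of haem synthesis (1006 ± 221 in Low, 3122 ± 556 in Negative, 1.64 ± 0.23), and 2 were lower.

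The remaining lipid and organelle members were led by 3 that were highest in High. Abca5, a lysosomal transporter of uncertain substrate, was at 313, 262 and 367 in the High libraries, 76.3, 84.8 and 68.2 in the Low, 32.7, 42.5 and 14.9 in the Sublow and 47.5, 33.8 and 41.1 in the Negative. High did not overlap with any other population and exceeded Low by 2.02 ± 0.33 (4.05-fold, adjusted p = 0.000411) and Sublow by 3.45 ± 0.33 (10.9-fold, adjusted p = 3.46e-06). Its fall from Low to Negative (-0.90 ± 0.33, adjusted p = 0.0339) was lost without any of the Low libraries, Negative B or Negative C (adjusted p up to 0.104). Abcb9, the lysosomal peptide transporter TAPL, was at 929, 890.1 and 789 in High, 174, 273 and 145 in Low and 288, 407 and 161 in Sublow, against 413, 595 and 488 in Negative. High lay above everything else and Negative above Low. Against Low, High was higher by 2.18 ± 0.31 (4.54-fold, adjusted p = 0.000155) and Negative by 1.37 ± 0.31 (2.58-fold, adjusted p = 0.00231). High exceeded Negative by 0.81 ± 0.31 (adjusted p = 0.0407). Abca3, which loads phospholipid into lamellar bodies in the lung, had means of 2825 ± 174 in High and 1063 ± 115 in Low, then 1179 ± 237 in Sublow and 1547 ± 172 in Negative. Its excess of 1.41 ± 0.16 in High over Low (adjusted p = 3.4e-05) held in each alternative, whereas that of Negative over Low (0.54 ± 0.16, adjusted p = 0.0117) was lost without Negative B (adjusted p = 0.0512) and was -0.02 at the same total.

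Lower down, Abca12, the keratinocyte lipid transporter, was at 118 ± 8.88 in High and 56.6 ± 12.8 in Low (1.07 ± 0.22, adjusted p = 0.00217), and Abca8b at 101 ± 14.4 and 47.0 ± 13.5 (1.13 ± 0.31, adjusted p = 0.0102). Abca14, a member of a rodent gene cluster, was at 42.4 ± 8.23 in Negative against 11.9 ± 3.95 in Low (1.78 ± 0.60, adjusted p = 0.0226), a call lost at the same total and without Low A, Negative B or Negative C (adjusted p up to 0.0826). Abca2, known from myelin and the most even gene of the group, had means of 504 to 622 in the 4 populations. Abca4, the retinal transporter of photoreceptors, lay between 12.3 and 38.7 and Abca13 between 0.845 and 24.5, and neither was called.

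The soluble members, which have nucleotide-binding domains but no membrane domains, act in translation. Abce1 splits ribosomes after termination and was the sole called member highest in Low. Its values were 1197, 917 and 1146 in the High libraries, 2154, 1840.4 and 2285 in the Low, 1743, 1169 and 2492 in the Sublow and 1163, 706 and 959 in the Negative. Low lay above every High and Negative library, and Sublow C was the highest of all. Against Low, High was at -0.95 ± 0.25 (1.93-fold, adjusted p = 0.00903) and Negative at -1.17 ± 0.25 (2.26-fold, adjusted p = 0.00165). Abcf2 was called lower in High than in Low (-0.55 ± 0.18, adjusted p = 0.0292), a call lost without High B, High C, Low A or Low B (adjusted p up to 0.114). Abcf1, an initiation factor partner, had means of 3027 ± 640.2 in High, 3457 ± 754 in Low and 4314 ± 236 in Sublow, against 4695 ± 208 in Negative. Its rise from Low to Negative (0.47 ± 0.18, adjusted p = 0.0461) was lost without High B, Low C, Sublow A or any Negative library (adjusted p up to 0.201). Abcf3 was within 442 to 659.7 in all libraries, with Negative above Low by 0.48 ± 0.11 (adjusted p = 0.00272). At the same total, Negative against Low was -0.10 for Abcf1 and -0.08 for Abcf3, neither called. Of 7 measured genes of ribosome rescue and translation control, 2 were higher and 2 lower in Negative than in Low (background 26.8% and 30.3%). Eif6, which keeps ribosomal subunits apart, rose by 1.29 ± 0.19, and Eif2ak4, the amino acid sensing kinase Gcn2, fell by 2.11 ± 0.30 from 426 ± 74.6 to 105 ± 47.2.

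**Figure D3:**
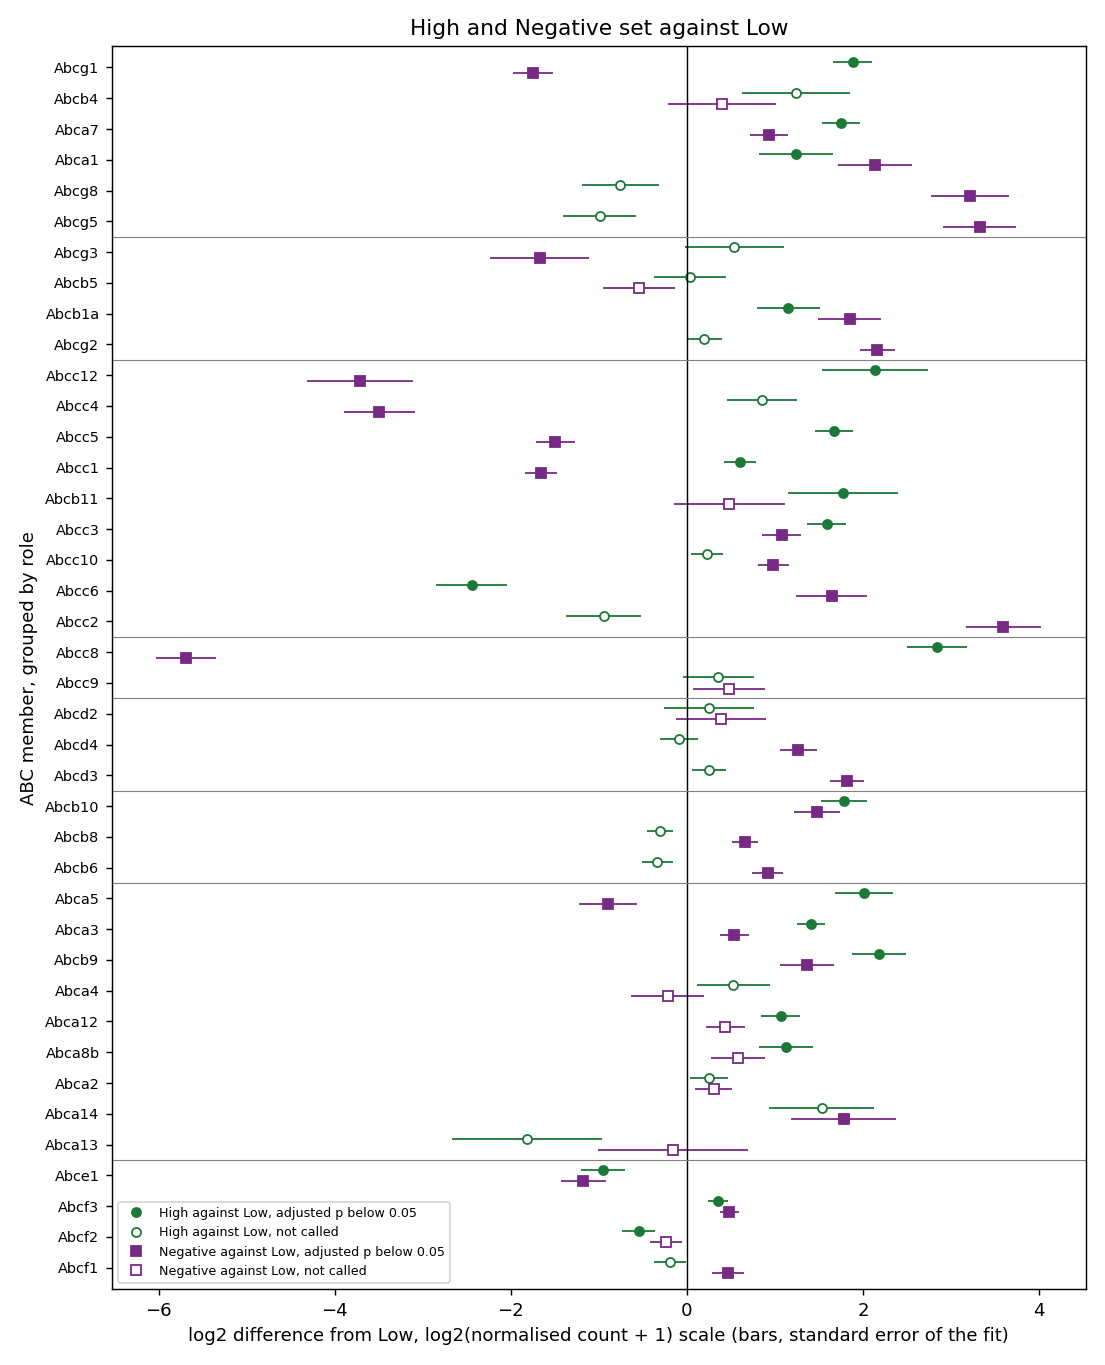
Points give the log2 difference of High (green circles) and Negative (purple squares) from Low for each member shown, bars the standard error of the fit, and filled symbols an adjusted p below 0.05. Abcc8, Abcc12, Abcg1, Abcc5, Abcc1 and Abca5 have filled symbols on both sides of 0, and Abcc6 has them in the reverse arrangement.

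Across the family, 10 members were called higher in High than in each other population (Abca3, Abca5, Abca7, Abca12, Abcb9, Abcc1, Abcc5, Abcc8, Abcc12 and Abcg1), a pattern of 15.6% of all genes tested, and 8 in Negative, a pattern of 9.33% of all genes (among them Abcc2, Abcc10, Abcd3, Abcd4, Abcg2, Abcg5 and Abcg8). Of the High group, Abca12 and Abcb9 were the least firm on leaving out 1 library: their calls against Negative (0.63 ± 0.22, adjusted p = 0.0297, and 0.81 ± 0.31, adjusted p = 0.0407) were lost without High A, High B, High C, Negative A or Negative C, and that of Abcb9 also without Low A or Sublow A (adjusted p up to 0.126). Abcc1 left the group without High B, High C, Low B or Low C, and at the same total. The count of 10 was 7 without High B or High C and 13 at the same total. The count of 8 rests on the Sublow against Negative calls and fell to 3 without Sublow A, 2 without Sublow C and 1 without Negative B, and to 4 at the same total. No member was higher in Low or in Sublow than in each of the rest. Against Low, 6 members were higher in High and lower in Negative (Abca5, Abcc1, Abcc5, Abcc8, Abcc12 and Abcg1), as were 8.33% of all genes, and 8 were higher in both (Abca1, Abca3, Abca7, Abcb1a, Abcb9, Abcb10, Abcc3 and Abcf3), as were 7.15% of all genes. The count of 6 was 4 without Low B or Low C. That of 8 was 5 without High B, High C or Low A and 5 at the same total. At the same total Abca3, Abca7 and Abcf3 were no longer called higher in Negative. The shares of all genes are those of the reported scaling. No member was called lower in Low than in each other population. Of the 22 members higher in Negative than in Low, the Sublow mean lay between the means of Low and Negative for all 22. Sublow B was the highest Sublow library for 19 and Sublow C the lowest for 18. These counts were not made over all genes, so they are not shown to be particular to the family. The enterocyte marker sum had the same order of Sublow libraries (B above A above C). Sublow was called different from both Low and Negative for 6 of the 22 members (among them Abcc2, Abcd3, Abcg2, Abcg5 and Abcg8). Over all genes tested, 4446 were called higher in Negative than in Low. The same held for 1278 of these 4446 genes, which is 7.71% of all genes. Among genes higher in Negative, the members' share was therefore no higher than that of all genes. The members' count was 2 without Sublow A, 2 without Sublow C, 1 without Negative B and 0 with the 6 libraries of each pair alone.

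Levels of different genes can be set side by side only per kb of exon, for which GENCODE M21 exon lengths were used. In Negative the most abundant members per kb were Abcg5 (1800.0 ± 499.7 normalised counts per kb), Abcc2 (1707 ± 404), Abcg8 (1458 ± 502), Abcd3 (1294 ± 204) and Abcf1 (1065 ± 47.1). The 3 leading means lie within each other's SD, and the place of Abcc2 among them is not resolved. Abcg5 was above Abcg8 in each Negative library (ratios per kb of 1.17, 1.17 and 1.43 in A, B and C). In High they were Abcc3 (739 ± 87.4), Abcf1 (686 ± 145), Abcb1a (586 ± 84.3), Abcc8 (463 ± 56.0) and Abcd3 (433 ± 39.8), and in Low Abcf1 (784 ± 171), Abcd3 (364 ± 47.1) and Abce1 (349 ± 38.1). In Sublow Abcf1 (978 ± 53.6) and Abcg5 (772 ± 509.5) had the highest means, but their order is not resolved, since Abcg5 was above Abcf1 in Sublow B (1332 and 922). The 5 most abundant members made up 46.8% of the family's level per kb in High and 48.3% in Low, beside 51.0% for Sublow and 59.1% for Negative. Summed over the 42 members, normalised counts were 37336, 38516 and 40273 in High and 24179, 26563 and 22698 in Low, then 36526, 51506 and 29113 in Sublow and 55484, 77870.5 and 70292 in Negative.

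**Figure D4:**
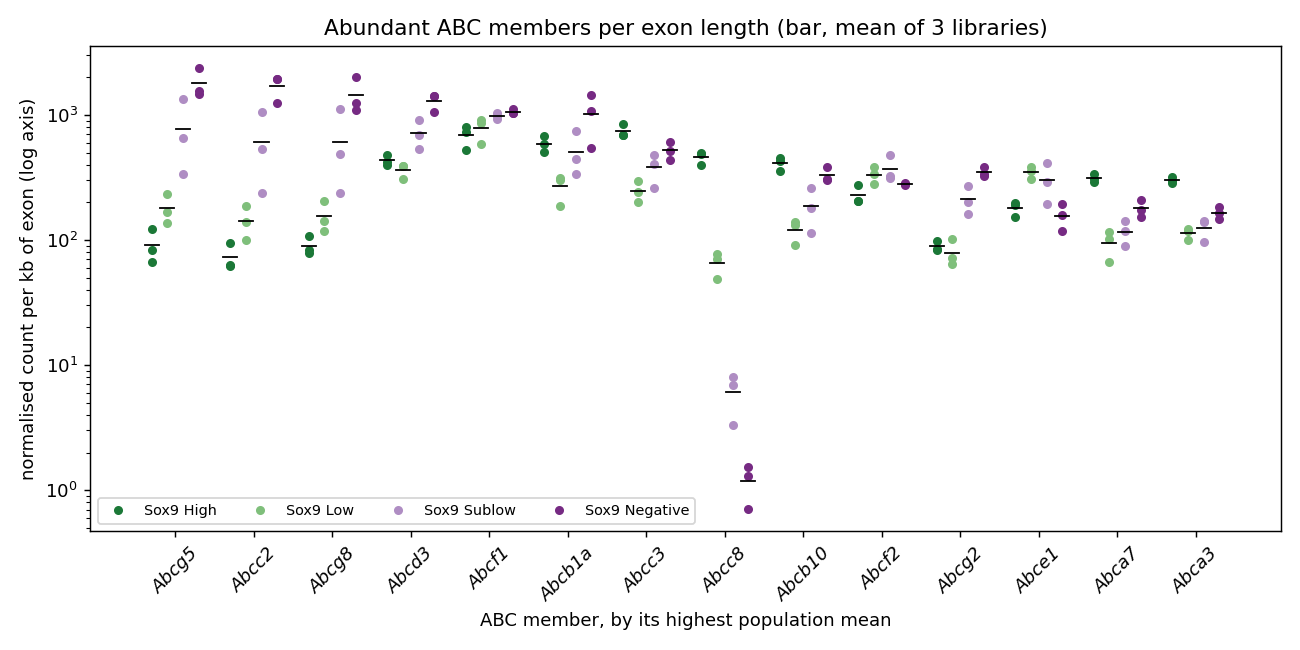
Normalised counts per kb of exon (log axis) for abundant members, points for libraries and bars for the mean of 3. In Negative Abcg5 averages 1800.0, Abcc2 1707 and Abcg8 1458 per kb, whereas Abcc8 drops from 463 in High to 1.18 in Negative.

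The ABC proteins named otherwise added contrasts of their own. Cftr, the chloride channel of crypt cells, was at 426 ± 109 in High against 6824 ± 1156 in Low, 5315 ± 1327 in Sublow and 4538 ± 841 in Negative, with High against Low at -4.02 ± 0.23 (adjusted p = 6.44e-07). Tap1 and Tap2, which carry peptides into the endoplasmic reticulum for antigen presentation, rose from Low to Negative by 1.97 ± 0.37 and 2.63 ± 0.35. Of the rows under the minimum, Abca15 had its highest values in Negative (6.34, 18.5 and 6.85) and at most 4.75 elsewhere, Abca6 reached 12.3 in Negative B, and Abca9 and Abcg4 reached 12.3 in Sublow A. Abca8a, Abca16 and Abca17 stayed under 10 in all 12 libraries. Exons of 10 members overlap a gene on the opposite strand in GENCODE M21 (Abca3, Abca8b, Abcb1a, Abcb9, Abcb10, Abcb11, Abcc9, Abcc10, Abcg5 and Abcg8) and those of Abcb6 a gene on the same strand, and without knowing whether counting used strand their values may include reads of the other gene.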

How the data were processed

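RNA sequencing of 12 libraries (4 populations, 3 each) was used. The authors deposited 1 table with a signal per gene symbol and library. A step common to all genes of a library divides 100% of its values (tolerance 0.01), so they are read counts scaled by 1 factor per library. The aligner, counting program, strand setting, genome build, annotation and size factor program are each not given in the sources used here. Columns were matched to samples through the labels' descriptions, and 0 columns were left over.

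Values were used as log2(value + 1) for genes with at least 10 in at least 3 libraries. Differences were tested with limma 3.58.1 in R 4.3.3 (trend, 1 fit, 4.10 prior degrees of freedom), and p-values were adjusted by Benjamini-Hochberg over the 16577 genes. On the recovered counts edgeR 4.0.16 and DESeq2 1.42.0 called, in that order, 21 and 24 members between High and Low, 15 and 17 between Sublow and Low, 30 and 31 between Negative and Low, 26 and 27 between High and Negative, 10 and 20 between Sublow and Negative, and 30 each between High and Sublow. Over all genes edgeR called 3995 (Sublow and Negative) to 9460 (Negative and Low). The printed backgrounds are those of the limma fit and do not apply to the edgeR and DESeq2 counts. A floor of 3 counts is 2.38 to 4.61 normalised units, and counting intervals are 95%.

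The members, role groups, gene lists and markers were chosen with earlier results of these data known. Values in each library are given for members with a called log2 difference of at least 1.5 and a 12-library mean of 100 or more, and always for Abca1, Abcb1a, Abcb1b, Abcc2, Abcc3, Abcg2, Abcg5 and Abcg8. Library values of Abce1 and Abcc12 and the sequences printed were chosen after the values were seen. Sequences and promoters are from RefSeq (GRCm38.p6), and exon lengths and overlaps from GENCODE M21, matched by symbol. Some genes enter the counts but are not reported here by name.

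Alternatives were pseudocounts of 0.5 and 5, no filter, a minimum mean of 50, a same-total scaling, recomputed median-of-ratios scaling, edgeR, DESeq2, library weights, a replicate block, the 6 libraries of a pair alone, a fit without Sublow, and leaving out each library.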

Additional observations from a re-analysis of the deposited data

How the results depend on the processing

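Counts of called members kept within 1.5 times their reported value in all alternatives for High against Low, Negative against Low, High against Negative and High against Sublow. The remaining pairs, Sublow against Negative and Sublow against Low, did not. Sublow against Negative called 17 members and 4597 genes: 11 members at the same total, 10 with edgeR, 6939 genes with library weights, and 0 members and 46 genes when only the 6 libraries of the pair were fitted. Leaving out 1 library gave 3 to 22 members and 1748 to 6247 genes, with the lowest counts without Negative B (3 and 1748). Sublow against Low called 14 members and 3979 genes: 23 members and 7880 genes with library weights, 2473 genes with the 6 libraries alone, and 2503 to 5604 genes on leaving out 1 library, the lowest without Sublow B and 2520.0 without Low A. The cause was not tested. On leaving out 1 library, High against Low called 14 to 24 members, Sublow against Low 11 to 21 and Negative against Low 27 to 31. High against Negative called 23 to 27 and High against Sublow 25 to 31. Backgrounds printed above are those of the reported fit and do not apply to member counts of the alternatives.

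At the same total, Negative against Low turned to -0.0198 for Abca3, -0.10 for Abcf1 and -0.0759 for Abcf3, as the median of all genes fell. Abcc5 in Sublow against Negative, not called, turned to -0.0764 with library weights, and on leaving out 1 library ran from -0.0365 (without Negative A) through -0.0011 (without Sublow C) to 0.373 (without Sublow A). Over all genes the same-total calls were 2435 higher and 8080 lower in Negative than in Low (reported 4446 and 5028), 1303 and 3270 in Sublow against Low (2201 and 1778), 7469 and 2583 in High against Negative (4776 and 4278), 3824 and 610 in Sublow against Negative (2500 and 2097), and 5464 and 3165 in High against Sublow (4421 and 4201).

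The labels do not say what the replicate letters stand for, and libraries of the same letter deviated together at correlations of 0.0521 to 0.341. Because only 13 of 18 pairs passed 0.1, the letters were not taken to pair the samples, although all 12 libraries correlated best with their own letter (a hint from the data). Whether the letters pair the samples is therefore not known, and the reported fit ignores any such pairing. With the replicate block, 24 members were called in High against Low, 18 in Sublow against Low and 31 in Negative against Low. The block called 27 in High against Negative, 20 in Sublow against Negative and 31 in High against Sublow. Calls were gained (in High against Low, Abcc2, Abcg5 and Abcg8 among them) and none was lost. Calls over all genes under the block are not given here, so these counts cannot be set against the printed backgrounds. Members with means under 100, 12 of the 42, are limited by depth, where 1 read is worth 0.792 to 1.54 units.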
